A study of Mus musculus with 14 samples.

Results

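The comparison described here sets erythro-myeloid progenitors that lost Ezh2 through Tie2-Cre (Tie2 KO) against progenitors of the same line without the transgene (Tie2 WT). Its members are all regions of the authors' list of higher regions and of their list of lower regions for this pair of groups. Together these hold 3578 of the 9954 regions that the authors called over the 3 comparisons of the series, on 3855 of 10679 lines, since a region near more than 1 gene has a line for each. The assay was ATAC-seq, which tags accessible DNA with sequencing adapters through the Tn5 transposase, applied to 500 sorted yolk sac cells per reaction with 14 cycles of PCR. The Tie2 KO group has 5 samples of genotype Ezh2fl/fl; Tie2-CreTg/+ and the Tie2 WT group 3 samples of genotype Ezh2fl/fl; Tie2-Cre+/+, all C57BL/6 at stage E10.5. Both groups therefore carry the floxed Ezh2 alleles, and they differ in the transgene, so effects of Cre itself and of the loss of Ezh2 cannot be told apart. Tie2 is another name of Tek, a receptor of endothelial cells, and Tie2-Cre is active in endothelium and in the blood cells that arise from it. The labels do not say whether the samples came from separate embryos.

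Ezh2 is the enzyme of Polycomb repressive complex 2 (PRC2) and methylates lysine 27 of histone H3. The mark lies on promoters of genes that a cell type keeps silent, above all developmental regulators with promoters rich in CG dinucleotides, and Polycomb repressive complex 1 (PRC1) binds it and compacts the chromatin. Erythro-myeloid progenitors bud from the endothelium of the yolk sac and give rise to red cells, megakaryocytes, mast cells, macrophages and other myeloid cells of the embryo.

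A higher region is one that the authors called more accessible in Tie2 KO, and a lower region one that they called less accessible. For every region the lists give the log2 fold change with its adjusted p-value and no value per sample, so the authors' adjusted p is the sole error of a region, depth is unknown, and the spread between replicates cannot be shown. The authors' deposited table has smallest log2 fold changes of 0.59 among higher and -0.58 among lower regions, and a largest adjusted p of 0.0457. Each region covers the start of its gene or lies upstream of it, at up to 4998 bp, apart from 1 that the authors class as inside the gene Rgs17. Regions assigned only to gene bodies or to distant enhancers are therefore outside these lists, although a listed region can reach into a gene body. A gene is called near a region where the authors' list pairs them.

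Sequences of promoters under higher and lower regions are shown first, since their base composition is one of the results. The lines that follow give the 250 bases before the gene start from RefSeq (GRCm38.p6, the assembly of the authors' mm10 build), with each CG dinucleotide in capitals. Twist2, a mesodermal transcription factor (chr1:91801211-91801460, plus strand), has the largest fold change of any developmental transcription factor gene with a higher region over its start. Flt1, a receptor of vascular endothelial growth factor (chr5:147726012-147726261, minus strand), is an endothelial gene under a higher region. Clec1b, the podoplanin receptor of platelets (chr6:129397047-129397296, plus strand), lies under a lower one.
Twist2: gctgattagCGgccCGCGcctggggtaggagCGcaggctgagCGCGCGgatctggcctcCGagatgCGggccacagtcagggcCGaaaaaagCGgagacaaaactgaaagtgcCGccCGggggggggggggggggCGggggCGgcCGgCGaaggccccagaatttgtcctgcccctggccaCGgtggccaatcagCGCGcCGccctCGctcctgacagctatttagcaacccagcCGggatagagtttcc
Flt1: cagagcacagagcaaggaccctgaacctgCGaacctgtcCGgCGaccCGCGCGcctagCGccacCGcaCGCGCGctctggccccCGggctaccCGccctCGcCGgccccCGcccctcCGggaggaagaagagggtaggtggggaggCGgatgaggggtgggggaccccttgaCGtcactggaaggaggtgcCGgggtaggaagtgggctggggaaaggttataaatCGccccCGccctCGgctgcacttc
Clec1b: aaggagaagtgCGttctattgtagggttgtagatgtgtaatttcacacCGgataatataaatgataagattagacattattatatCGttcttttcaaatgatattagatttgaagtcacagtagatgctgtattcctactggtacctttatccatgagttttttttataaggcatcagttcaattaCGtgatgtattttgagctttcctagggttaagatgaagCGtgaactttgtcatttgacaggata
The Twist2 and Flt1 stretches hold 23 CG dinucleotides each and that of Clec1b holds 5. By the authors' deposited table the log2 fold change is 2.15 for the Twist2 region (adjusted p = 1.24e-06), 0.95 for the Flt1 region (adjusted p = 3.28e-07) and -1.47 for the Clec1b region (adjusted p = 0.000157).

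Some promoters under lower regions hold the motif AGATAA, or TTATCT on the other strand, the core that GATA factors of blood are known to bind. The platelet and mast cell genes named next are examples. The motif was also in promoters of Lct, Ldhal6b, Colec11 and Use1, among others, under lower regions. Under higher regions it was in those of Neurog3, Tcf21 and Tek, among others. Clec1b has the motif just after its start, outside the 250 bases shown above. The motif is in capitals in the 250 bases before the starts of Gp6, the collagen receptor of platelets (chr7:4397745-4397994, minus strand), and Cpa3, a protease of mast cells (chr3:20242182-20242431, minus strand), both shown 5′ to 3′ in the direction of the gene.
Gp6: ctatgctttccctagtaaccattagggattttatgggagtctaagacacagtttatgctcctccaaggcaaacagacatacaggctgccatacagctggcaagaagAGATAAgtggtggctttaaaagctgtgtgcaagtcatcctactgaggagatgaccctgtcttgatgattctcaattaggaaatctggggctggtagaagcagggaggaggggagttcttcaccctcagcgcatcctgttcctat
Cpa3: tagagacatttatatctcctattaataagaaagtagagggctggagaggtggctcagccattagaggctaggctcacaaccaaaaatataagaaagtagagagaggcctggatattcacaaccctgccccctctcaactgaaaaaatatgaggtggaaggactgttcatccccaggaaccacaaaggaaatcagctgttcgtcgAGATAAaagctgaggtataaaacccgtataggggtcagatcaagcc
The Cpa3 region, chr3:20241202-20245000, was the widest of all lower regions at 3799 bp. Its log2 fold change per the authors' deposited table is -1.07 (adjusted p = 5.08e-06), and that of the Gp6 region is -1.33 (adjusted p = 0.00103). The letters describe these windows and do not show that a factor was bound there.

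MicroRNA genes gave 2 of the 5 largest rises, and the mature sequences show which of them share a target seed (bases 2 to 8, in capitals), the part that pairs with messenger RNAs. The first line is made from all 3 Mir9 genes, the next from Mir125b-1, and the last 2 from the Mir196 genes of the Hox clusters.
miR-9-5p: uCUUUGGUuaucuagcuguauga
miR-125b-5p: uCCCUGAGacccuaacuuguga
miR-196a-5p: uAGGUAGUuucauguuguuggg
miR-196b-5p: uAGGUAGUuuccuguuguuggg
All 3 Mir9 genes, which lie on different chromosomes and encode the same microRNA of the developing brain, were near higher regions. Their log2 fold changes per the authors' deposited table are 2.77 for Mir9-3, 1.42 for Mir9-2 and 1.24 for Mir9-1, with adjusted p-values of 7.03e-08, 3.19e-06 and 6.33e-08. The Mir9-3 region lay 3463 bp upstream, whereas the others covered the gene start. The 3 Mir196 genes share the seed AGGUAGU and were near higher regions as well, at 1.32 for Mir196a-1, 0.83 for Mir196b and 0.80 for Mir196a-2 per the authors' deposited table. Mir125b-1 had a log2 fold change of 2.73 per the authors' deposited table (adjusted p = 6.31e-08). In all, 67 of 1228 microRNA genes (5.46%) lay beside a higher region and 36 (2.93%) beside a lower region. Of these, 62 and 36 matched the RefSeq table of mature sequences. Among lower ones Mir3068 led, at -1.59 per the authors' deposited table, with the smallest adjusted p of any lower region, 5.11e-08.

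Higher regions numbered 2959 near 2833 genes and lower ones 619 near 656 genes. In size, the median log2 fold change was 1.02 (quartiles 0.81 and 1.28) among higher and -0.86 (quartiles -1.075 and -0.73) among lower regions. At least a doubling (log2 fold change of 1 or more) was listed for 1553 higher regions, 52.5% of them, and at least a halving for 207 lower regions, 33.4%. A log2 fold change of 2 or more was listed for 68 higher regions, and of -2 or less for 3 lower ones. The background for every gene family below is the share of protein-coding genes in the RefSeq table, of which 2529 of 21900 (11.5%) lay beside a higher region and 550 (2.51%) beside a lower one.

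**Figure D1:**
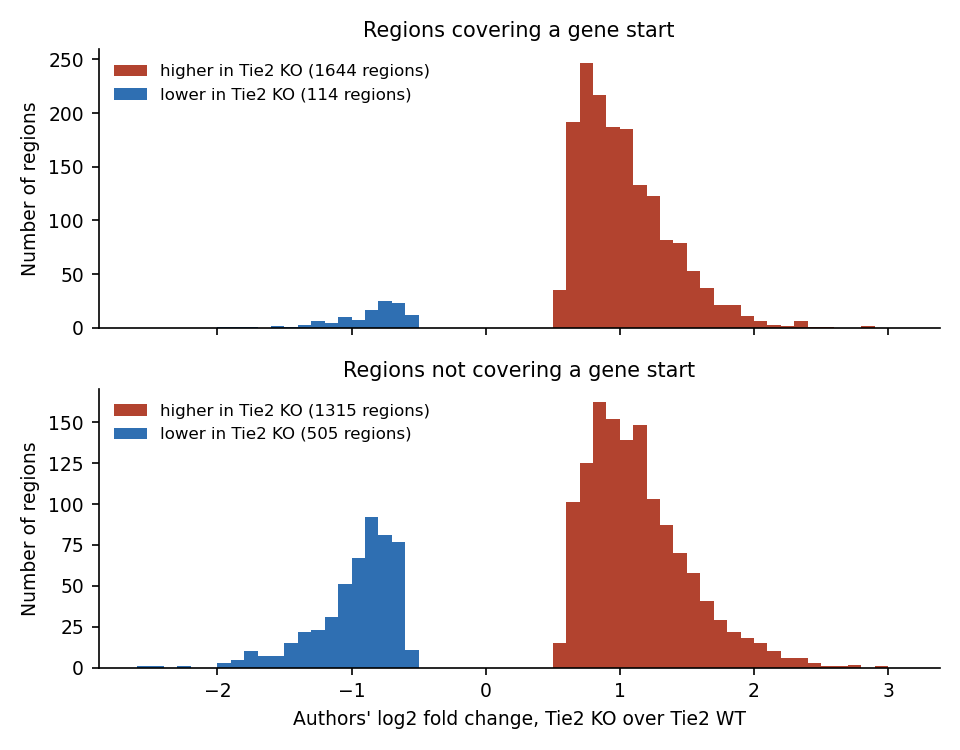
Number of regions (vertical axis) by the authors' log2 fold change of Tie2 KO over Tie2 WT in bins of 0.1 (horizontal axis), above for regions that cover a gene start and below for the others, with higher regions in red and lower ones in blue. Over gene starts 1644 regions were higher and 114 lower, and away from them 1315 were higher and 505 lower; the empty band around 0 is the authors' cutoff.

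The directions were placed differently along the genes. Of higher regions 55.6% covered a gene start (exact 95% binomial interval 53.7% to 57.4%), and of lower regions 18.4% (15.4% to 21.7%). Such intervals describe the lists and carry no spread between samples. Away from a start the median log2 fold change was 1.08 against 0.975 over starts for higher regions, and -0.88 against -0.785 for lower ones. These off-start regions had a median distance to the gene start of 1513 bp among higher and 2032 bp among lower ones, and 39.1% and 29.1% of them ended within 1 kb of the start. Of them, 510 of 1315 higher ones (38.8%, 36.1% to 41.5%) touched the body of a protein-coding gene, and 266 of 505 lower ones (52.7%, 48.2% to 57.1%). Since a region upstream of one gene can lie inside its neighbour, the gene named for it is the one whose start it precedes. Starts of at least 2 genes were covered by 78 higher and 4 lower regions.

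Width went with position. The narrowest regions, 999 bp wide, made up 21.0% of higher and 49.3% of lower regions, and 295 higher regions against 2 lower ones were 3099 bp or wider. Among higher regions the share over a gene start was 21.7% at 999 bp, 39.9% at 1099 to 1499 bp, 67.5% at 1599 to 1999 bp, 83.7% at 2099 to 2999 bp and 90.8% above that. Among lower regions it was 14.1%, 19.2% and 28.7% in the first 3 of these classes, with 6 and 2 regions left in the others. The median log2 fold change of higher regions stayed between 0.99 and 1.04 over the 5 classes. In the narrowest class the shares of the directions lay closer together than over all regions.

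**Figure D2:**
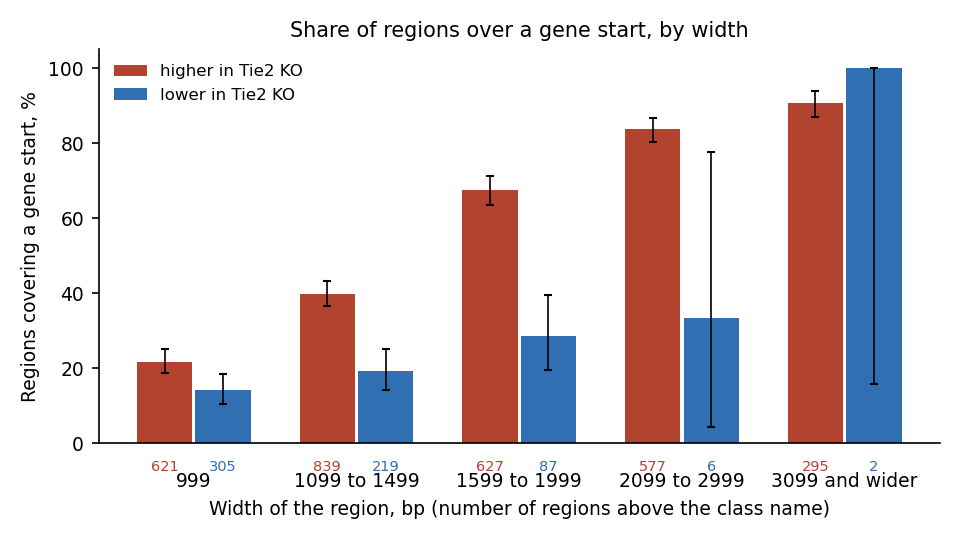
Percent of regions that cover a gene start (vertical axis) by region width in bp (horizontal axis), for higher regions in red and lower regions in blue, with exact 95% binomial intervals and the number of regions under each bar. The red bars go from 21.7% at 999 bp to 90.8% at 3099 bp and wider, and the blue bars from 14.1% to 28.7% over the first 3 classes.

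The widest region of all was that of Tek, chr4:94736902-94749800, at 12899 bp, with a log2 fold change of 2.90 per the authors' deposited table (adjusted p = 0.00132). The next widest were those of Pdgfra, a growth factor receptor of mesenchyme, at 7999 bp, of Hes1, a repressor downstream of Notch, at 7299 bp, and of Sfrp2, a secreted Wnt inhibitor, at 6799 bp. The Tie2-Cre transgene is built with regulatory sequence of Tek and was carried by the Tie2 KO samples and not by Tie2 WT, so reads from the transgene and from the gene itself cannot be told apart. Against Vav KO, in a comparison that uses the same Tie2 KO samples, the authors' deposited table gives 2.92 over 12299 bp of the same interval. Neither Ezh2 nor Vav1 had a region in this comparison. Ezh2 has no line in any list of the series, so the lists hold no check of the deleted gene.

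Regions also came in runs. Where neighbouring regions of one direction lay within 20 kb of each other, they were counted as a run. By that count 895 higher regions (30.2%) fell in 377 runs, against 78 lower regions (12.6%) in 38 runs. The lists hold 2959 higher and 619 lower regions, and a fixed gap finds more neighbours in a longer list. The number of regions was not held equal. The longest run among higher regions held 16 regions and the longest among lower regions 3. The 3 longest were Hox clusters. The HoxA run, chr6:52156102-52265000, held 16 regions with log2 fold changes from 0.80 to 2.08 per the authors' deposited table. The HoxC run, chr15:102919702-103020500, held 14 regions from 0.80 to 1.99 per the authors' deposited table, and the HoxB run, chr11:96251002-96316300, held 9 from 0.78 to 1.69. Dlx5 with Dlx6, and Msx1 with its antisense RNA gene, made runs of 5 regions each. Counted per gene, 293 genes had 2 higher regions, 24 had 3 and 3 had 4, and 16 genes had 2 lower regions.

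Developmental transcription factors had the largest share near a higher region of the gene groups counted here. Of 320 such genes in 14 families, 198 (61.9%, exact 95% interval 56.3% to 67.2%) were near a higher region, with 0 on the lower side, against 11.5% and 2.51% of all protein-coding genes. The median log2 fold change of the 198 was 1.22, where that of all 2529 genes was 1.04, and 133 of them had a higher region over the start. All 9 Dlx and Msx genes, which pattern the jaw, limb and forebrain, were near a higher region, as were 32 of 39 Hox genes, 47 of 58 other patterning genes (homeobox genes and the zinc finger genes Bnc1 and Bnc2), 9 of 12 LIM homeobox genes, 10 of 14 Nkx genes and 11 of 16 T-box genes. Counts in other families were 26 of 49 for tissue-specific bHLH genes, 9 of 18 for POU and Onecut genes, 17 of 44 for forkhead genes, 7 of 19 for Sox genes and 4 of 15 for Zic, Gli and Sall genes.

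Within these families the members span many tissues other than blood. The largest log2 fold change among them in the authors' deposited table is 2.34, of Tbx3, and others are Foxn4 at 1.95 and Dmbx1 at 1.91. Regulators of endoderm (Foxa1 and Foxa2), of muscle (Myod1), of neurons (Olig3 and Pou4f1) and of heart and limb (Tbx5, Hand1 and Hand2) were all near higher regions. By the authors' deposited table they lie between 0.82 for Foxa2 and 1.67 for Olig3, with Myod1 at 1.45 (adjusted p = 4.95e-08). Of the 6 Gata genes, those of other organs and of lymphoid cells were near higher regions, with log2 fold changes per the authors' deposited table of 1.41 for Gata4, 1.38 for Gata5, 1.35 for Gata3 and 1.21 for Gata6. Gata1 and Gata2, the members that act in blood progenitors, had no region in this comparison.

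**Figure D3:**
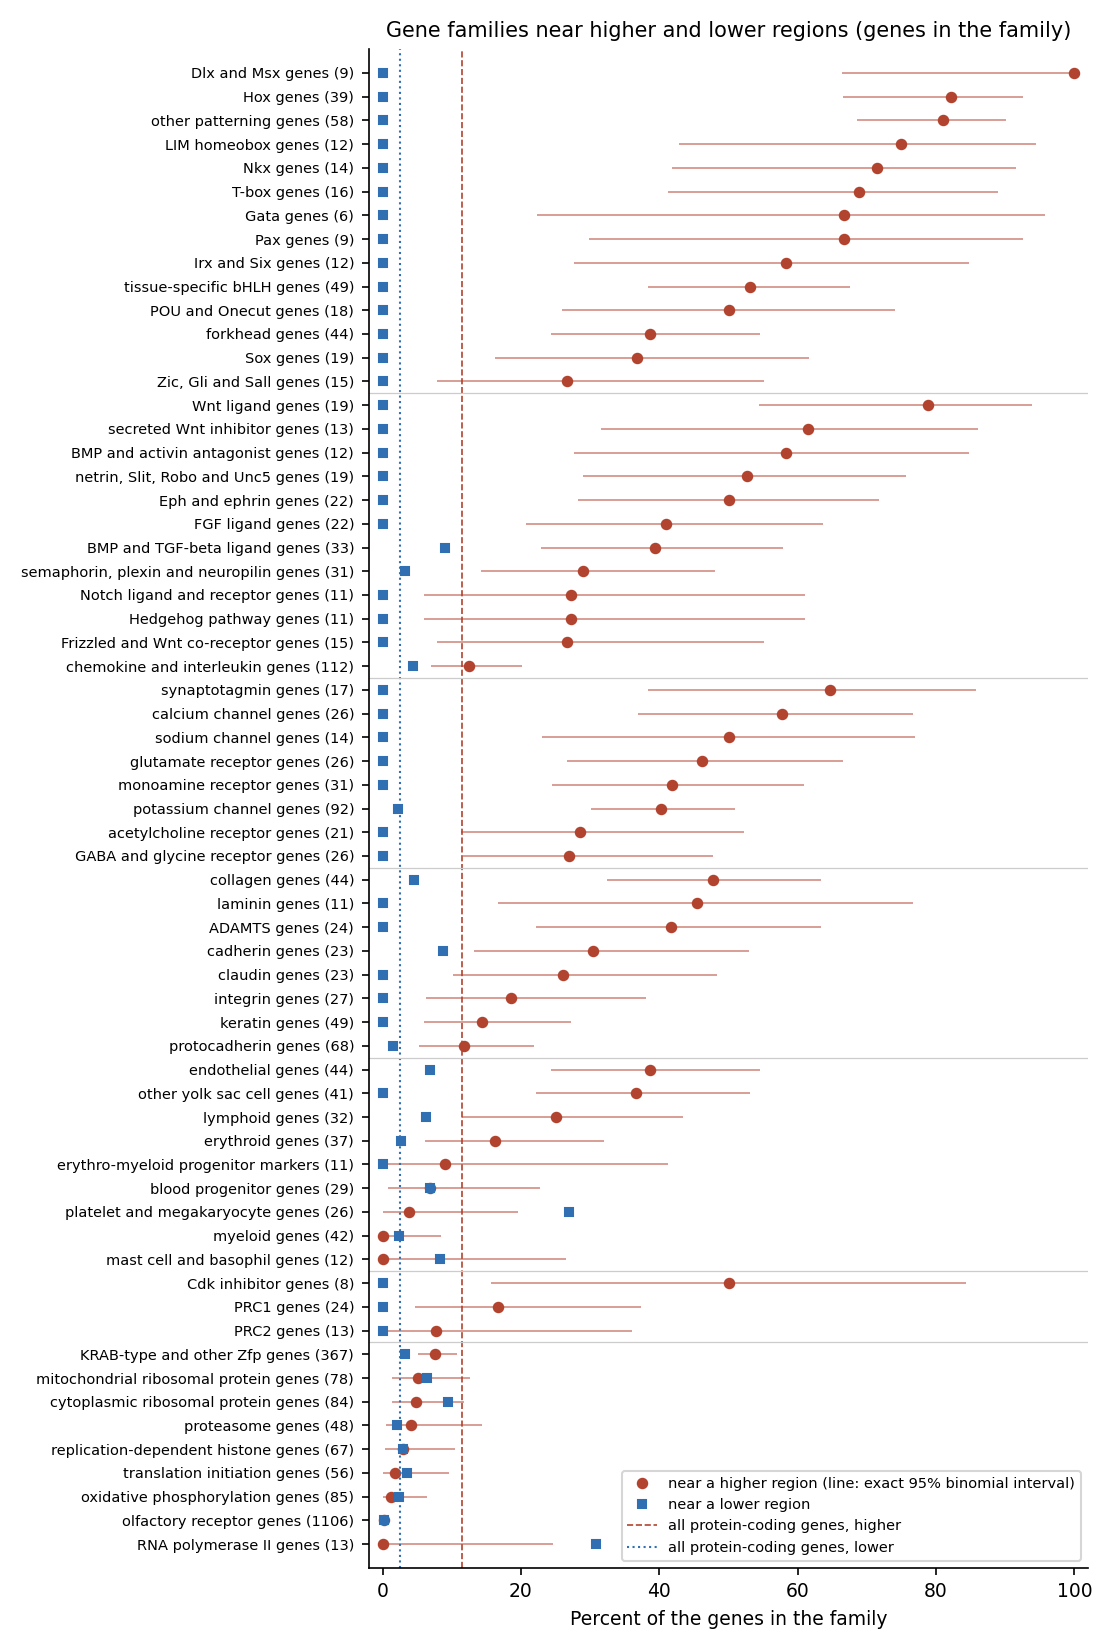
Percent of the genes in each family (horizontal axis; number of genes in brackets) near a higher region, as red circles with exact 95% binomial intervals, and near a lower region, as blue squares; dashed and dotted lines mark all protein-coding genes, at 11.5% and 2.51%. Developmental families at the top reach 100% for Dlx and Msx genes, and platelet and RNA polymerase II genes sit to the right of the lower background with their blue squares, at 26.9% and 30.8%.

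Genes of signalling between cells numbered 106 of 320 (33.1%) beside a higher region and 9 (2.81%) beside a lower region. The Wnt pathway had most of its ligands among them. Near higher regions were 15 of 19 Wnt ligand genes and 8 of 13 genes of secreted Wnt inhibitors, but 4 of 15 Frizzled and Wnt co-receptor genes. Of the BMP and TGF-beta family, 13 of 33 ligand genes and 7 of 12 genes of BMP and activin antagonists were near a higher region. The ligand gene Bmp3 had a log2 fold change of 1.98 per the authors' deposited table. This ligand family also had 3 members near lower regions, Gdf9, Gdf5 and Gdf3, at -1.23, -0.86 and -0.59 per the authors' deposited table. Of FGF ligand genes, 9 of 22 were near a higher region, led by Fgf20 at 1.9 per the authors' deposited table (adjusted p = 6.31e-08).

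Axon guidance genes, which also steer vessels, made up much of this group. Near higher regions were 10 of 19 genes of netrins, Slits and their receptors, 11 of 22 Eph and ephrin genes and 9 of 31 genes of semaphorins, plexins and neuropilins. Slit3, a repellent for axons and a ligand of Robo receptors, had a log2 fold change of 2.48 per the authors' deposited table over chr11:35120002-35123700, which covers its start (adjusted p = 9.1e-08). Plxnb3 was the one member near a lower region, at -1.38 per the authors' deposited table. Genes of chemokines, interleukins and their receptors sat near the background, with 14 of 112 (12.5%) beside a higher region and 5 (4.46%) beside a lower region. Those 5 were Ccr1, Il23a, Cxcr3, Il15 and Ccl17.

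Genes of neuronal membrane proteins were near a higher region in 108 of 253 cases (42.7%, exact 95% interval 36.5% to 49.0%), and 2 were near a lower one. With 999 bp regions alone the share was 4.35% (2.19% to 7.65%), an interval that holds the 2.61% of all protein-coding genes in that setting. Of the 108, 86 had the region over the gene start. Genes for both sides of the synapse were among them. On the sending side, 11 of 17 genes of synaptotagmins, the calcium sensors of vesicle release, were near a higher region, as were 15 of 26 calcium channel genes and 7 of 14 sodium channel genes. On the receiving side the counts were 12 of 26 for glutamate receptors, 13 of 31 for monoamine receptors, 7 of 26 for GABA and glycine receptors and 6 of 21 for acetylcholine receptors. Potassium channel genes, which set the resting and firing state of a neuron, numbered 37 of 92, with Kcnk7 and Kcnu1 near lower regions at -0.79 and -0.75 per the authors' deposited table. Leading the group per the authors' deposited table are Cacng6 at 2.19, the histamine receptor gene Hrh1 at 2.08, Cacna1g at 1.92, Kcnk1 at 1.9 and the glutamate receptor gene Grik3 at 1.86.

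Adhesion and matrix genes had a higher region nearby in 69 of 269 cases (25.7%) and a lower one in 5 (1.86%). Collagen genes stood at 21 of 44, laminin genes at 5 of 11 and genes of ADAMTS proteases at 10 of 24. Laminin alpha 2, Lama2, had a log2 fold change of 2.32 and the cartilage collagen gene Col2a1 one of 2.01 per the authors' deposited table. The integrin genes, whose products bind this matrix, stood at 5 of 27 and the clustered and other protocadherin genes at 8 of 68, close to the 11.5% of all protein-coding genes. The collagen genes near lower regions were Col20a1 and Col18a1, at -1.06 and -0.91 per the authors' deposited table.

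Genes of the machinery that every cell uses lay under the background for higher regions. Among 295 genes of ribosomes, oxidative phosphorylation and the proteasome, 11 (3.73%) were near a higher and 16 (5.42%, exact 95% interval 3.13% to 8.66%) near a lower region, against 11.5% and 2.51%. The lower share depended on the regions counted: with an absolute log2 fold change of at least 1 it was 1.69% (0.553% to 3.91%) against 0.808% of all protein-coding genes, and with 999 bp regions alone 2.03% (0.75% to 4.37%) against 1.24%, so both intervals held the background. Not one of these 27 genes had the region over its own start. Among lower members were Atp5l of the ATP synthase at -2.45, Mrpl57 at -1.7 and Rpl31 at -1.29 per the authors' deposited table, the last lying 750 bp upstream. RNA polymerase II subunit genes numbered 4 of 13 near a lower region, Polr2j, Polr2b, Polr2f and Polr2g, from -1.19 to -0.65 per the authors' deposited table. Of 1340 genes of small nucleolar RNAs, many of which lie in introns of such genes, 11 (0.821%) were near a lower and 1 (0.0746%) near a higher region. Several of them share a region: Snord33, Snord34 and Snord35a lie at a region of -0.68 per the authors' deposited table. Olfactory receptor genes, silent in most cells, had 2 of 1106 beside regions of each direction.

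Blood and vessel genes lay on both sides, 49 of 258 (19.0%) beside a higher region and 17 (6.59%) beside a lower region. In bulk samples of sorted cells, fewer cells of a type and less accessible chromatin per cell cannot be told apart. The platelet and megakaryocyte family had 7 of 26 genes (26.9%, exact 95% interval 11.6% to 47.8%) near a lower region, against 2.51% of all protein-coding genes, and 1 near a higher one. Among the 7, the authors' deposited table has Treml1, a receptor of platelet granules, at -1.61, Clec1b at -1.47, Gp6 at -1.33, Fermt3, an activator of integrins, at -0.85, Tubb1, the tubulin of platelets, at -0.84 and F2rl2 at -0.80. Clec1b, Gp6 and Tubb1 had the region over the gene start, and Treml1, Fermt3 and F2rl2 upstream of it. The higher member was Rab27b, a regulator of granule release, at 0.79 per the authors' deposited table.

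The erythroid family had 6 of 37 genes (16.2%) with a higher region nearby and 1 (2.7%) with a lower one, not far from the 11.5% and 2.51% of all protein-coding genes. The higher members include genes of the red cell membrane skeleton. By the authors' deposited table Sptb (spectrin beta) stands at 1.2, Ank1 (ankyrin) at 1.03, the anion exchanger gene Slc4a1 at 0.87 and Epb42 at 0.71. Trim58, which acts in late red cell maturation, had 1.97 and the globin repressor gene Bcl11a 0.74 per the authors' deposited table. The lower member was the adult globin gene Hbb-bs, at -1.08 per the authors' deposited table (adjusted p = 7.72e-05); globin genes have close copies, and the sources used here do not say how reads shared by copies were placed.

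The other blood families were small, and protein-coding genes as a whole stood at 11.5% for higher regions and 2.51% for lower ones. Among these families only the myeloid share for higher regions (exact binomial interval 0% to 8.41%) lay clear of those values. The lymphoid interval for higher regions began at the background itself. Of 42 myeloid genes, 0 were near a higher region and 1, the adaptor gene Tyrobp, was beside a lower one, at -0.58 per the authors' deposited table. Of 29 blood progenitor genes, the regulators Prdm16 and Erg were near higher regions at 1.67 and 1.52, and Cd48 and Igf2bp3 near lower ones at -0.89 and -0.70 per the authors' deposited table. Of 12 mast cell and basophil genes, Cpa3 was the one with a lower region, and the other 11, among them Kit, Gata2 and Fcer1a, had none. The lymphoid family had 8 of 32 (25%, exact 95% interval 11.5% to 43.4%) near a higher region, 7 of them for transcription factors (Pax5, Lef1, Bcl11b, Gata3, Tbx21, Ebf1 and Eomes), and 2 (6.25%) near lower ones.

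**Figure D4:**
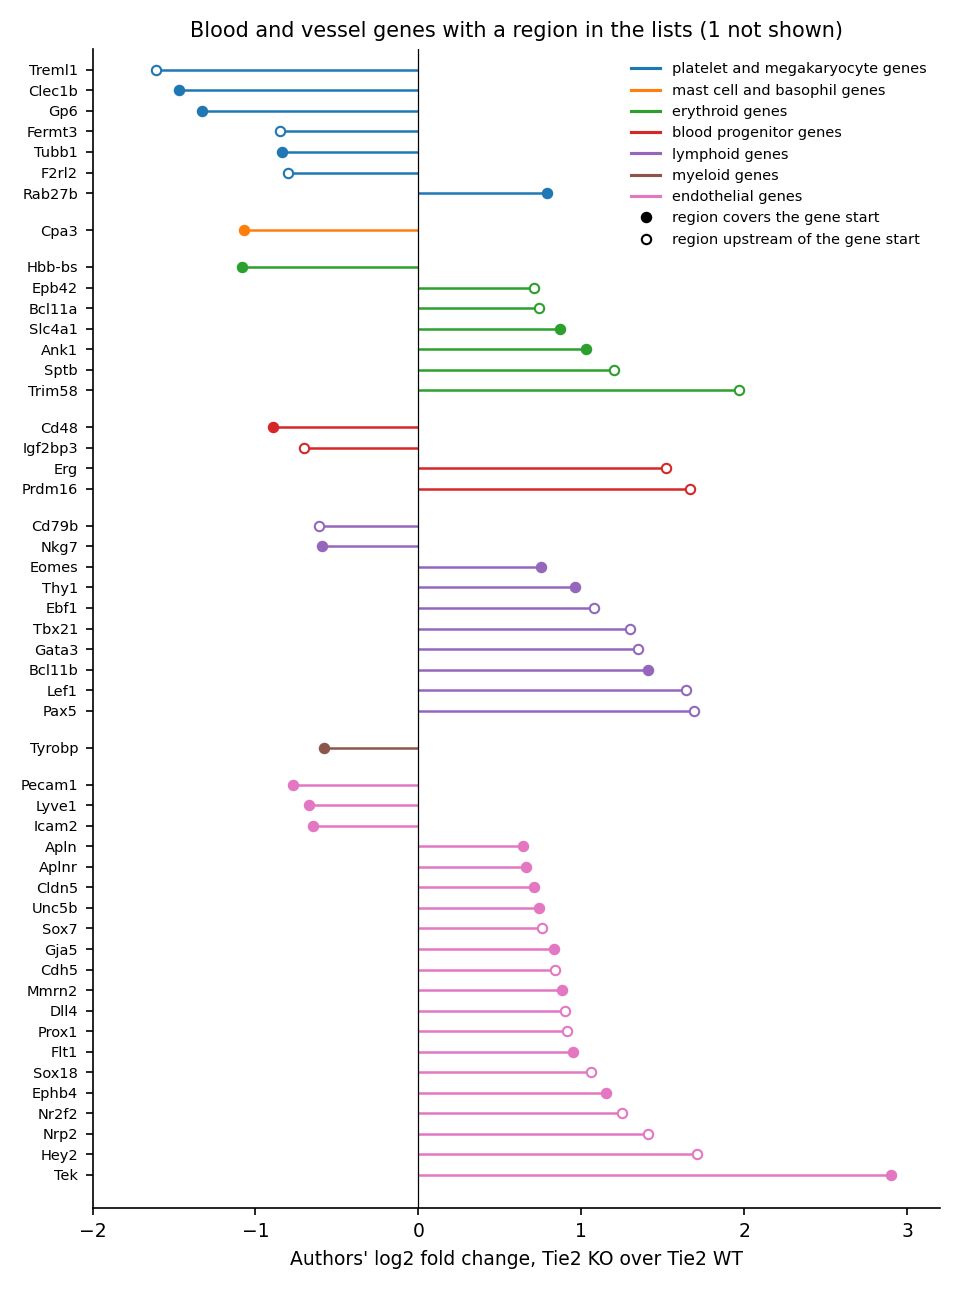
Authors' log2 fold change of Tie2 KO over Tie2 WT (horizontal axis) for genes of the blood and endothelial families that have a region, 1 lower platelet gene left out, coloured by family; filled circles mark a region over the gene start and open circles one upstream. The 6 lower platelet genes drawn lie between -1.61 and -0.80, and the 17 higher endothelial genes between 0.64 and 2.90.

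The cells were labelled as erythro-myeloid progenitors, and the lists, which hold regions that differed, cannot show the level of their markers. Of 11 markers of these progenitors, among them Kit, Itga2b, Ptprc and Runx1, 10 had no region and Cdh5, the cadherin of endothelium, had a higher one 4124 bp upstream, at 0.84 per the authors' deposited table (adjusted p = 0.00134). Among yolk sac markers of other types, 8 of 12 for mesoderm and mesothelium and 1 of 10 for visceral endoderm were near a higher region, with 0 on the lower side. Several of the mesodermal markers, such as Twist1, Twist2, Hand1, Hand2 and Wt1, are also developmental transcription factors. Macrophage and erythroid markers, 5 and 6 genes, had no region. What part other cells in the sorted samples had in these results was not tested.

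Endothelial genes had 17 of 44 near a higher region (38.6%, exact 95% interval 24.4% to 54.5%) and 3 with a lower region (6.82%). The higher members include regulators of arterial fate, Hey2 at 1.71 and Dll4 at 0.90, of venous and lymphatic fate, Nr2f2 at 1.25 and Prox1 at 0.91, and the venous receptor gene Ephb4 at 1.15 per the authors' deposited table. The lower members are surface proteins that blood cells share with endothelium: Pecam1 at -0.77, Lyve1 at -0.67 and Icam2 at -0.65 per the authors' deposited table, each with the region over the gene start. Without Tek, whose interval the transgene shares, 16 of the 17 remain, from 0.64 for Apln to 1.71 for Hey2.

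Few Polycomb genes themselves had a region. Of 13 PRC2 genes, Epop, a cofactor of the complex, had a higher region, at 1.27 per the authors' deposited table. Of 24 PRC1 genes, 4 had one, among them Cbx2 at 1.86, Pcgf5 at 0.95 and Cbx8 at 0.83 per the authors' deposited table. Cbx2 and Cbx8 encode subunits that read the PRC2 mark and are neighbours on chromosome 11, and the regions of these 3 genes lay upstream of the gene, at 1053 to 3188 bp. Of 8 Cdk inhibitor genes, brakes of the cell cycle and known Polycomb targets, 4 were near higher regions, with Cdkn1b at 1.12, Cdkn2a at 0.98, Cdkn1c at 0.72 and Cdkn2b at 0.71 per the authors' deposited table.

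Of the 3 H3K27 demethylase genes, Uty on the Y chromosome had a higher region, at 0.99, and Kdm6a, its X-linked counterpart, a lower one, at -0.79 per the authors' deposited table. Kdm5c (-1.10) and the X inactivation centre genes Jpx (-0.74) and Ftx (-1.32 and -0.84) were also near lower regions per the authors' deposited table. The X chromosome held 54 higher and 21 lower regions, 72.0% higher. The labels do not give the sex of the embryos, and its part in these values was not tested. Without chromosomes X and Y, an alternative chosen after seeing the data, 82.9% of regions were higher, against 82.7% with them.

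Among single regions, the log2 fold changes of the authors' deposited table run from -2.56 at Eef1g, a translation elongation factor gene, to 3.0 at Lad1. Of other large rises the authors' deposited table has Cdsn, a protein of cornified skin, at 2.49, Spin1, a reader of histone methylation, at 2.45, Nbea at 2.45, Zfp618 at 2.37 and the desmosomal gene Pkp2 at 2.36. The smallest adjusted p of the comparison, 2.63e-08, belongs to a region upstream of both Ttc22 and Lexm, at 2.15 per the authors' deposited table. Of other large falls the authors' deposited table has Erp27 at -1.94, Cmtm7 at -1.93, the natural killer receptor gene Klra3 at -1.90, the zinc finger regulator gene Yy1 at -1.88 and Srf, the serum response factor gene, at -1.76. None of these named lower genes had the region over its start. Among the 20 largest falls, Snord91a at -1.97 and Armt1 at -1.87 per the authors' deposited table did have it there. After Cpa3 and Kdm6a the widest lower region was that of C5ar1, a complement receptor gene of myeloid cells, at 2799 bp and -0.66 per the authors' deposited table. Autosomes differed too: 17.3% of protein-coding genes on chromosome 15 and 7.36% on chromosome 16 were near a higher region, and the share of regions that were higher went from 70.8% on chromosome 19 to 89.7% on chromosome 3.

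A small number of genes had regions of both directions. They number 11: Chd5, Disp3, E230013L22Rik, Ilf2, Lemd2, Mir3080, Nfil3, Nphs1os, Rin1, Ttc39b and Zfp568. At Chd5, a chromatin remodeller of neurons, the region over the start was higher at 1.19, and one 4250 bp upstream was lower at -1.04 per the authors' deposited table. Disp3, E230013L22Rik and Rin1 showed the same order, with the higher region over the start and the lower one upstream. At Zfp568 both lay upstream, the lower at -1.66 and the higher at 1.0 per the authors' deposited table, 2054 and 854 bp from the start. The reverse order, a lower region over the start, was seen at Lemd2 and Nphs1os.

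The base composition of promoters differed between the directions, as in the sequences shown first. RefSeq promoter windows, from 250 bases before to 50 after a start, were set against the regions. Of 32851 windows, 1328 (4.04%) lay wholly inside a higher region and 62 (0.189%) inside a lower one. A gene with several starts has several windows, so these belong to 1190 and 59 genes. The intervals below treat windows as separate. A window was called CpG-rich where its GC share was at least 50% and its CG dinucleotides at least 0.6 times the number its C and G content would give. By that measure 54.8% of windows in higher regions were CpG-rich (exact 95% interval 52.1% to 57.5%) and 11.3% of those in lower regions (7 of 62, 4.66% to 21.9%), against 33.5% of all windows. Protein-coding genes alone gave 56.3% and 13% (6 of 46), against 45.1%. The median number of CG dinucleotides was 18 in higher, 6.5 in lower and 7 in all windows.

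The same shares were taken by kind of gene. Of lncRNA genes, 225 of 12731 (1.77%) lay beside a higher region and 52 (0.408%) beside a lower region. Among their windows, 48.4% of those in higher regions were CpG-rich, against 12% of all lncRNA windows. Among developmental transcription factors the shares were 64.0% (48 of 75, exact 95% interval 52.1% to 74.8%) and 55.1%. Among neuronal membrane protein genes they were 49.2% (30 of 61, 36.1% to 62.3%) and 37.3%. Both intervals held the share of all windows of their group. By width of the higher region, the CpG-rich share went from 34.5% at 999 bp (20 of 58, exact 95% interval 22.5% to 48.1%, which holds the 33.5% of all windows) to 62.1% at 3099 bp and wider. The Tek promoter, inside the widest region, was no such case: the 250 bases before its start (chr4:94739039-94739288, plus strand) hold 2 CG dinucleotides.
Tek: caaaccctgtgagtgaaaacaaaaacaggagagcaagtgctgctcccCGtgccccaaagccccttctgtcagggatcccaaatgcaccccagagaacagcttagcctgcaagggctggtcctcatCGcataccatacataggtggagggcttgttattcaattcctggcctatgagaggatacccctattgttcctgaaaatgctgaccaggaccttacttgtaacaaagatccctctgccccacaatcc

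**Figure D5:**
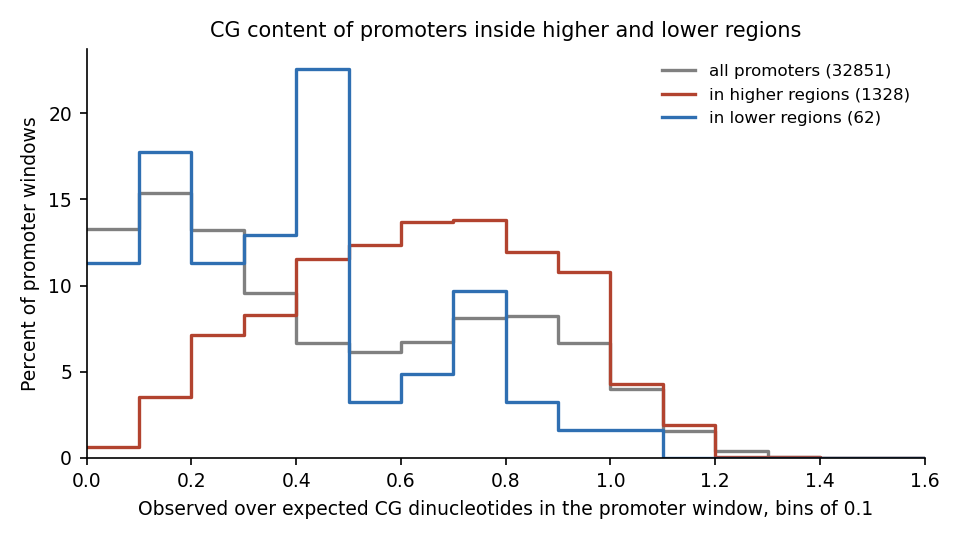
Percent of promoter windows (vertical axis) by observed over expected CG dinucleotides in bins of 0.1 (horizontal axis), for all windows in grey, those inside higher regions in red and those inside lower regions in blue. The red line lies to the right of the grey one at values from 0.4 to 1.0, and the blue line, of 62 windows, has most of its windows under 0.5.

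Short motifs were counted in the same windows, on both strands, so a gene with several windows can count more than once. AGATAA or TTATCT was in 16 of 62 windows in lower regions (25.8%, exact 95% interval 15.5% to 38.5%), in 6.33% of those in higher regions and in 11.2% of all windows. TGTGGT or ACCACA, the core of RUNX sites, was in 24.2%, 9.86% and 16.8% of these sets. CCGGAAGT or ACTTCCGG, an ETS site found at promoters of widely expressed genes, was in 6 of 1328 windows in higher regions (0.452%), in 2 of 62 in lower regions and in 3.89% of all. TATAAA or TTTATA was in 7.3% of windows in higher, 12.9% in lower regions and 13.6% of all. CACGTG, an E-box that is its own reverse complement, was at 7.68%, 9.68% and 7.15%. The AT-rich motifs are also the ones that a CG-rich window has less room for, and composition was not held equal in these counts.

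The other comparisons share samples with this one, the Tie2 KO samples in one and the Tie2 WT samples in the other, and are no independent repeat. Their values where a region overlaps one described above are given for the genes whose sequences were shown and for further members on both sides. Against Vav KO the authors' deposited table gives 1.66 for Slit3, 0.75 for Flt1, 2.1 for Mir125b-1, 0.88 for Mir9-1 and -1.53 for Clec1b, where Tie2 KO against Tie2 WT gives 2.48, 0.95, 2.73, 1.24 and -1.47. For Twist2 it gives 2.93 and 1.05 over 2 regions, against 2.15 here, and for Cpa3 -0.89 and -1.62, against -1.07 here. The regions of Gp6 and Mir9-3 overlap none of the other lists' regions for the same gene. In Vav KO against Tie2 WT the authors' deposited table gives 1.33 for Twist2, 1.54 for Mir9-2 and -2.1 for Treml1, with the sign they have here. The sign was opposite at other members, with values in Vav KO against Tie2 WT per the authors' deposited table of -1.65 for Rab27b, 1.66 for Erp27, -0.73 for Hoxd1, -1.17 for Hoxd12 and -1.11 for Fgf9. In Tie2 KO against Tie2 WT they stand at 0.79, -1.94, 1.25, 0.88 and 0.83 per the authors' deposited table. Uty stands at 1.29 in Vav KO against Tie2 WT and at -1.94 in Tie2 KO against Vav KO per the authors' deposited table.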

How the data were processed

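Libraries were aligned and regions called by the authors. Per the submitters' processing notes, the build was mm10 and the tools were HOMER 4.10, MACS2 2.1.2, Picard, SAMtools 1.3.1, Bowtie2 and FastQC, listed without roles. The sources used here do not give the handling of Tn5 offsets and duplicates, the scaling of libraries or the test used. A scaling by total reads would move all fold changes together, and its effect could not be tried here. Per the file headers, the authors deposited for each region its log2 fold change, its adjusted p-value and other measures, namely the width and the distance to the gene start in bp. The abbreviations in the list names were read as Tie2 KO and Tie2 WT.

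Regions were distinct combinations of chromosome, start and end. Gene identifiers were matched to RefSeq genes of GRCm38.p6 (3853 of 3855 lines), and 67 gene families were defined by symbol. The members and lists were chosen with earlier results of these data known. Shares carry exact 95% binomial intervals, and no test across features was made, since the lists hold only called regions. Promoter windows of 300 bp came from RefSeq (27025 genes). Named genes were drawn from lists whose members are not all named. Per direction these were the 20 largest fold changes, 5 smallest adjusted p-values, 5 widest regions and genes with the most regions. Further lists were up to 4 leading members per family, all Polycomb, demethylase and Cdk inhibitor members, the longest runs and genes near both directions. Others named as examples, and the Cpa3 and Flt1 sequences, were chosen after their values were seen. Computation used Python 3.11.15, pandas 2.3.3 and SciPy 1.17.1 and was tested on simulated lists. Values of some genes counted in the families are not reported here.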

Additional observations from a re-analysis of the deposited data

How the results depend on the processing

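Of 36 values under alternative settings, 16 moved by less than the main value's binomial interval. They include every value at an adjusted p of at most 0.01. Every value without chromosomes X and Y, a setting added after seeing the data, is also among them. Those 2 settings kept 3545 and 3502 of the 3578 regions, so they left the values little room to move. With an absolute log2 fold change of at least 1, 88.2% of regions were higher, and 50.4% of higher and 14.5% of lower regions covered a gene start. Of promoters covered by higher regions 47.5% were CpG-rich (43.6% to 51.4%, against 33.5% of all windows and 45.1% of protein-coding ones). In that setting 46.9% of developmental transcription factor genes and 26.5% of neuronal membrane protein genes were near a higher region (background 6.21%), and 1.69% of ribosome, oxidative phosphorylation and proteasome genes near a lower one (background 0.808%). With 999 bp regions alone, these values were 67.1%, 21.7%, 14.1%, 34.5%, 10.6%, 4.35% (background 2.61%) and 2.03% (background 1.24%). With regions over a start or within 1 kb of it, 89.2% were higher, and the developmental and ribosome, oxidative phosphorylation and proteasome shares were 49.4% (background 9.16%) and 2.03% (background 1.03%). Merging regions within 10 kb gave 81.1% higher and 63.7% of higher regions over a start. The stricter CpG definition gave 34.3%, against 22.2% of all windows. For protein-coding genes alone it gave 35.0%, against 29.9%. With 999 bp regions alone the interval of the CpG-rich share (22.5% to 48.1%) held the 33.5% of all windows, that of the neuronal share (2.19% to 7.65%) held its background, and the intervals of the ribosome, oxidative phosphorylation and proteasome share held the background in each of the 3 settings that lowered it (0.553% to 3.91%, and 0.75% to 4.37% for both 2.03% values). No paired analysis was possible because the lists hold no value per sample, and leaving out single samples was not possible for the same reason. Depth is unknown, so the regions missing from the lists cannot be read as unchanged.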

Other observations

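Opposite-strand RNA genes, which are transcribed against a neighbouring gene, were near a higher region in 29 of 217 cases (13.4%) and near a lower one in 4, where lncRNA genes as a whole stood at 1.77% and 0.408%. The following were chosen after their values were seen. By the authors' deposited table Evx1os stands at 1.84, Gad1os, opposite the gene of a GABA-making enzyme, at 1.81, Vax2os at 1.56 and Otx2os1 at 1.42. The genes of zinc finger proteins named Zfp were near a higher region in 28 of 367 cases (7.63%) and near a lower one in 12 (3.27%).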
